A study of Homo sapiens with 6 samples.

Results

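The genes examined here were 37 genes of the interferon response and of antigen presentation by MHC class I, in OVCAR3 cells treated with THZ531. They were taken by symbol from the 47577 loci of the expression table. Each symbol matched 1 locus. OVCAR3 is an established cell line from a high-grade serous ovarian adenocarcinoma, and THZ531 binds covalently to CDK12 and CDK13, kinases of elongating RNA polymerase II, and inhibits them. Cells of the control group received DMSO, the solvent, and cells of the other group received 200 nM THZ531, both for 6 h, with 3 biological repeats per group, and polyadenylated RNA was sequenced. The labels mention no added interferon. One protocol field of the labels names the drug THZ1, whereas all titles and sample descriptions name THZ531, which is the name used below. A single cell line, dose and time point were measured. RNA made after the drug was added and RNA left from before cannot be told apart.

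Type I and type III interferons act through receptors that activate JAK kinases and, through them, the transcription factor ISGF3, which contains STAT2 and IRF9. ISGF3 binds the interferon-stimulated response element (ISRE) in the promoters of interferon-stimulated genes. Interferon gamma acts mainly through the GAS element and through IRF1. IRF3 and IRF7 link RNA and DNA sensors to the interferon genes themselves, and IRF2 competes with IRF1 for its sites. The stimulated genes include antiviral effectors such as the IFIT, IFITM, MX and OAS families, and the genes that load peptides on MHC class I and carry them to the cell surface. Many tumour cell lines express part of this programme without added interferon.

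Of the 8 members that passed both the 1.5-fold and the p threshold given below, 5 had more than 100 normalised reads on average and an entry in the RefSeq promoter table (build GRCh38.p14), which has none for IRF7 and IRF2. They are printed because these windows hold the letters that the factors above are known to recognise. Each sequence is the 250 bases before the annotated start, 5' to 3' on the strand of the gene, in lower case. Capitals mark matches, on either strand, to the core of the ISRE, which is GAAA followed after any 2 bases by GAAA, or to TTCNNNGAA, the core of the GAS element. ISG15 lies on the plus strand (chr1:1013247-1013496), as do IFIT3 (chr10:89327747-89327996), IFIT5 (chr10:89414318-89414567) and IRF9 (chr14:24161015-24161264), and IRF1 lies on the minus strand (chr5:132490774-132491023).
ISG15: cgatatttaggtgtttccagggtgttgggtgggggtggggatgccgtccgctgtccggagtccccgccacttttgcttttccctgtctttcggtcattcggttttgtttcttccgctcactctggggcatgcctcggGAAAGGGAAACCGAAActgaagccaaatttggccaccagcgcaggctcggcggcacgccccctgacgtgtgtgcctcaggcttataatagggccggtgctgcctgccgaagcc
IFIT3: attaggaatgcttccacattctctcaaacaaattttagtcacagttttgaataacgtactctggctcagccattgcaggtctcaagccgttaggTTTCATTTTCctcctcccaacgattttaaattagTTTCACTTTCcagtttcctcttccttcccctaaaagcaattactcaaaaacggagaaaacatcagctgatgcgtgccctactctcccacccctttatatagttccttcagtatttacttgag
IFIT5: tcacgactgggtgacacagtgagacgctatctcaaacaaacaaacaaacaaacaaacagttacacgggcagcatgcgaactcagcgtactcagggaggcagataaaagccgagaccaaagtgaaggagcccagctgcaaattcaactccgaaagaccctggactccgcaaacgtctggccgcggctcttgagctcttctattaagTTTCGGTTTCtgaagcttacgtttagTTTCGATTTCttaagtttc
IRF1: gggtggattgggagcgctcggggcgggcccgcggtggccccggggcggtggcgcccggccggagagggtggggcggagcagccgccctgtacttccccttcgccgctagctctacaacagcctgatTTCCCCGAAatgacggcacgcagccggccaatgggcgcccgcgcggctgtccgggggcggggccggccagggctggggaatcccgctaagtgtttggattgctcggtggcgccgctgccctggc
IRF9: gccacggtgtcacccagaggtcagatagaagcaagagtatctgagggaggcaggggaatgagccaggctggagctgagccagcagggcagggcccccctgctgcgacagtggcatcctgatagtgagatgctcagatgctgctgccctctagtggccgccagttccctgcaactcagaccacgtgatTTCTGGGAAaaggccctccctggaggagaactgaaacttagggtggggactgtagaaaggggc
The ISG15 window held 2 overlapping ISRE matches that begin 113 and 107 bases before the start. The IFIT3 window held 2 matches that begin 156 and 122 bases before the start and the IFIT5 window 2 that begin 45 and 19 bases before it. The IRF1 and IRF9 windows held no ISRE match and 1 GAS match each, beginning 124 and 63 bases before the start. Over the whole table the ISRE letters were found in 3.02% of 35116 windows and the GAS letters in 6.57%. Of the 28 members with an entry, 19 (67.9%) held the ISRE letters and 9 (32.1%) the GAS letters in at least 1 of their windows, against 3.71% and 8.09% of all 27305 symbols. These matches are letters in a window and not measured binding sites.

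Values are DESeq2-normalized reads, that is, reads on a locus divided by the size factor of the library. A locus was tested if 3 or more libraries reached 10 units, which was true of 17568 loci and 35 of the 37 members. A member was called when its fold change was at least 1.5 and its unadjusted p was at most 0.05 in limma, on log2(value + 1). Adjusted p-values below are Benjamini-Hochberg values over all 17568 loci, and fold changes are on that log2 scale. The libraries held 53054048 to 70986130 reads on loci, and 1 read was worth 0.794 to 1.26 units. Every log2 fold change below is relative to the deposited scaling. Setting each library to the same total shifted the log2 scale by -0.24, and setting it to RPL34, the reference gene of the study's qPCR, shifted it by -0.49, whereas upper-quartile and TMM scaling each shifted it by -0.02. Loci of few reads moved by slightly less, because of the 1 added before the logarithm. Of 10 markers of ovarian serous epithelium, the keratins KRT7, KRT8 and KRT18 and EPCAM were abundant in all libraries. PAX8 fell by 3.18 on the log2 scale and MUC16 by 0.46, and MSLN rose by 0.31. WT1 was at 514 to 736 reads over the 6 libraries, and FOLR1 and ESR1 were low, at 90.0 to 131 and 46.6 to 77.0. Of 10 leukocyte markers, 4 (CD3D, CD3E, MS4A1 and NKG7) were at 0 in all libraries. The summed level of the 10 was 530.3 to 594 in DMSO and 522 to 605 in THZ531. Of these, CD68 was at 380 to 460 and CD14 at 94.9 to 146 over the 6 libraries. The summed level of 6 fibroblast markers was 1659 to 1914 in DMSO and 3176 to 3517 in THZ531, carried by the collagen genes COL1A1 and COL3A1, with DCN and LUM at 3.19 or less. That of 4 endothelial markers was 231 to 286 and 308 to 419.8. The part of these genes in the results below was not tested.

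After 6 h of THZ531, 8 of the 35 tested members were called. IRF7 and ISG15 rose, which is 5.71% of the 35 tested members, against a background of 15.7% of all tested loci called higher. IRF1, IRF2, IRF9, IFIT3, IFIT5 and CMPK2 fell, which is 17.1% of the members, against a background of 23.9% of loci called lower. In these bulk libraries fewer cells expressing a gene and less RNA per cell cannot be told apart. Without DMSO replicate 1, or without DMSO replicate 2, 4 members were called higher. The median log2 fold change of the members was -0.12, beside -0.01 over all tested loci, and the range ran from -1.78 for IRF2 to 1.99 for IRF7. At an adjusted p of at most 0.05 and any fold, 9 members were higher and 12 were lower, which is 25.7% and 34.3% of the members against 34.6% and 34.1% of all loci. All 3 THZ531 libraries lay above the DMSO range for 10 members (28.6%; background 36.0%) and below it for 12 (34.3%; background 35.7%). The median coefficient of variation of the members was 7.55% among DMSO libraries and 5.28% among THZ531 libraries, beside 7.72% and 7.35% over all tested loci. The plot of each library by gene and role shows IRF7 far to the right and the other factors to the left by differing amounts. The MHC class I genes lie in a narrow band.

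**Figure D1:**
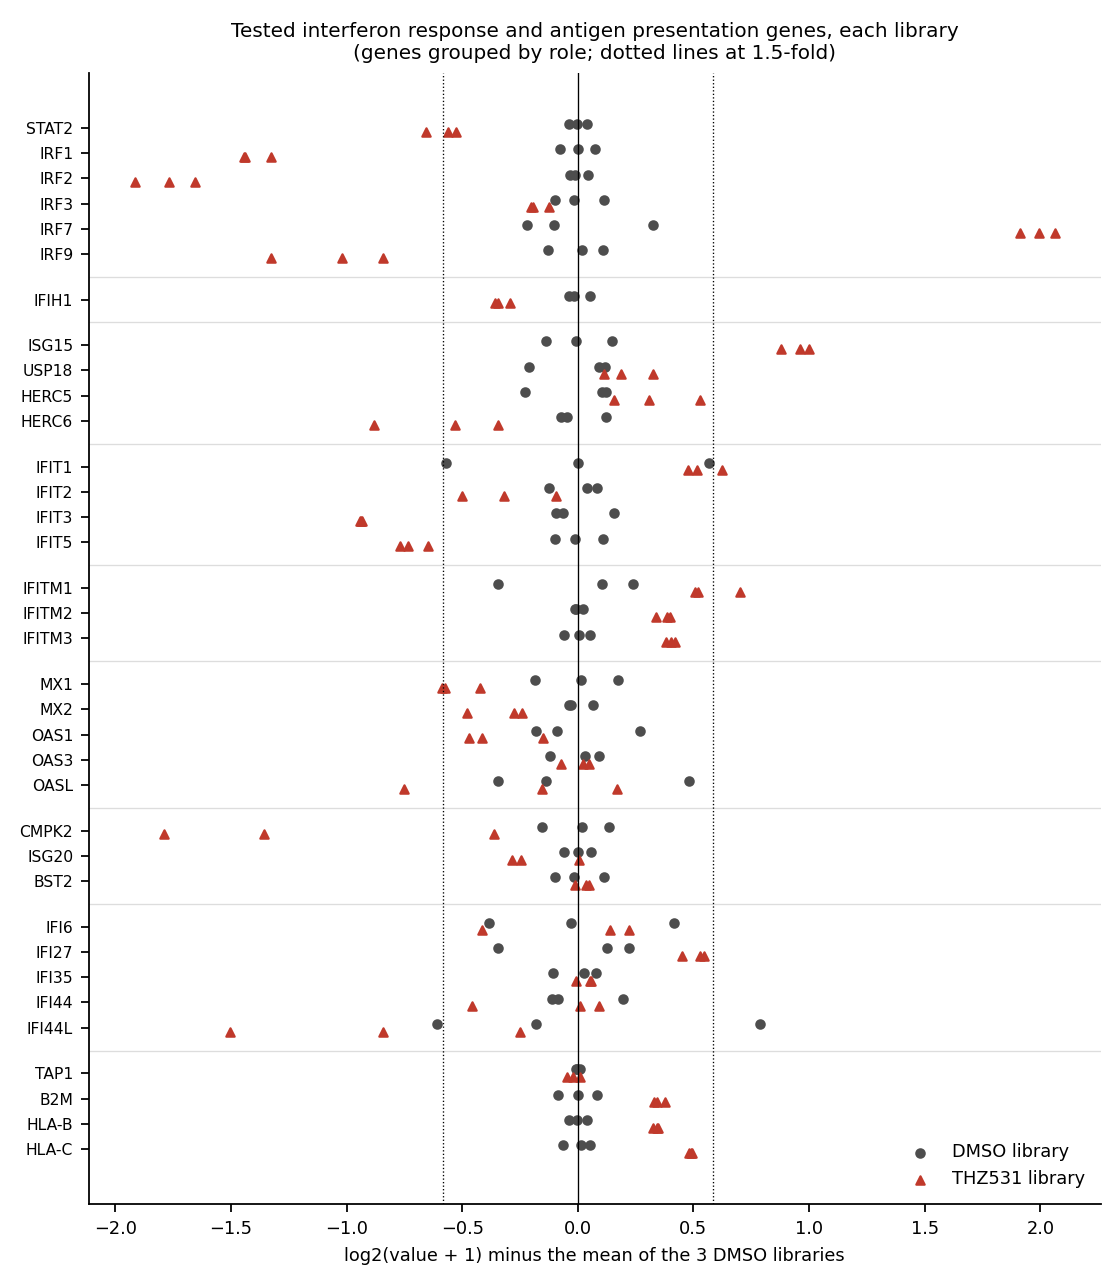
Value of each of the 35 tested members in each library, as log2(value + 1) minus the mean of the 3 DMSO libraries (x axis, log2 units), with genes grouped by role on the y axis. Grey circles are DMSO libraries, red triangles are THZ531 libraries and dotted lines mark 1.5-fold. IRF7 and ISG15 lie to the right of both dotted lines, and IRF1, IRF2, IRF9, IFIT3 and IFIT5 lie to the left with all 3 THZ531 libraries.

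Among the factors that transmit and shape the interferon signal, IRF7 rose, whereas STAT2, IRF1, IRF2, IRF3 and IRF9 were lower. IRF7, the interferon-inducible factor that switches on interferon alpha genes, had 211, 157 and 144 normalised reads in the 3 DMSO libraries and 636, 707 and 675 in the THZ531 libraries. Every THZ531 library was at least 3 times the highest DMSO library. The means were 171 ± 35.5 (SD, n = 3) and 673 ± 35.5, a log2 fold change of 1.99 (SE 0.13, adjusted p = 2.19e-09) that ranked 537 from the top among the 17568 loci. IRF7 rose under all 4 other scalings, by 1.498 with RPL34. Its locus (chr11:612555-615951, 11 exons, minus strand) ends 333 bases from that of PHRF1, which rose by 0.74 (SE 0.07).

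IRF1, the factor that carries much of the interferon gamma response to MHC class I genes, fell from 2798.5, 2956 and 3107 in DMSO to 1083, 1089 and 1176 in THZ531. The groups were far apart and tight within, with means of 2954 ± 154 and 1116 ± 52.2 (SD, n = 3). The log2 fold change was -1.40 (SE 0.06, adjusted p = 9.03e-12). The table gives IRF1 a locus of 79.8 kb (chr5:132410997-132490773), whereas the span of its canonical transcript in GENCODE release 44 is 9.17 kb. That locus overlaps IRF1-AS1, at means of 168 reads in DMSO and 176 in THZ531, with a log2 fold change of 0.07 (SE 0.16, adjusted p = 0.72), and it holds 3 unnamed loci, 1 of which fell by 2.36. Whether the reads were counted by strand is not given in the sources used here, so reads of IRF1 and IRF1-AS1 could be mixed.

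IRF2, which competes with IRF1 at its sites, fell most among the members. It had 695, 734 and 705 reads in DMSO and 188, 208 and 225 in THZ531. No library came near the other group. The means were 711 ± 20.4 and 207 ± 18.8 (SD, n = 3), with a log2 fold change of -1.78 (SE 0.10, adjusted p = 4.37e-10). It has the longest locus among the members, at 86.8 kb (chr4:184387717-184474550, 9 exons).

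IRF9, the DNA-binding part of ISGF3, had 581, 645 and 687 reads in DMSO and 253, 355 and 313 in THZ531. The highest THZ531 library was well under the lowest DMSO library. The log2 fold change was -1.06 (SE 0.12, adjusted p = 9.5e-07). RNF31, which ends 605 bases upstream of IRF9 (chr14:24161265-24166565) on the same strand, fell by the same amount, with a log2 fold change of -1.06 (SE 0.08). GENCODE annotates a readthrough gene from within RNF31 to the end of IRF9 (chr14:24147548-24166452), and 92.6% of the 100-base windows of the IRF9 transcript also occur in transcripts of other genes, this one among them. The table also places IRF9 inside a 554 kb locus named PSME2, which was higher by 0.41. Counts of IRF9 are therefore uncertain to the extent that reads were shared with these loci.

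STAT2, the partner of IRF9 in ISGF3, had 568, 539 and 551 reads in DMSO and 374, 350.1 and 383 in THZ531. The groups did not overlap, and the log2 fold change of -0.58 (SE 0.09, adjusted p = 3.49e-05) just missed 1.5-fold. It was called lower under each of the 4 other scalings, by edgeR, and without DMSO replicate 2, THZ531 replicate 1 or THZ531 replicate 3, with values from -0.59 to -1.07. IRF3, which sensors activate by phosphorylation, was lower by 0.17 (SE 0.07, adjusted p = 0.034), well under 1.5-fold. IFIH1, the sensor of long double-stranded RNA also called MDA5, had 510, 502 and 535 reads in DMSO and 402, 406 and 420 in THZ531, all below the DMSO range, with a log2 fold change of -0.33 (SE 0.09, adjusted p = 0.0039). So 5 of the 6 factors had every THZ531 library below the DMSO range, and IRF7 had every one above it, beside 35.7% and 36.0% of all tested loci.

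**Figure D2:**
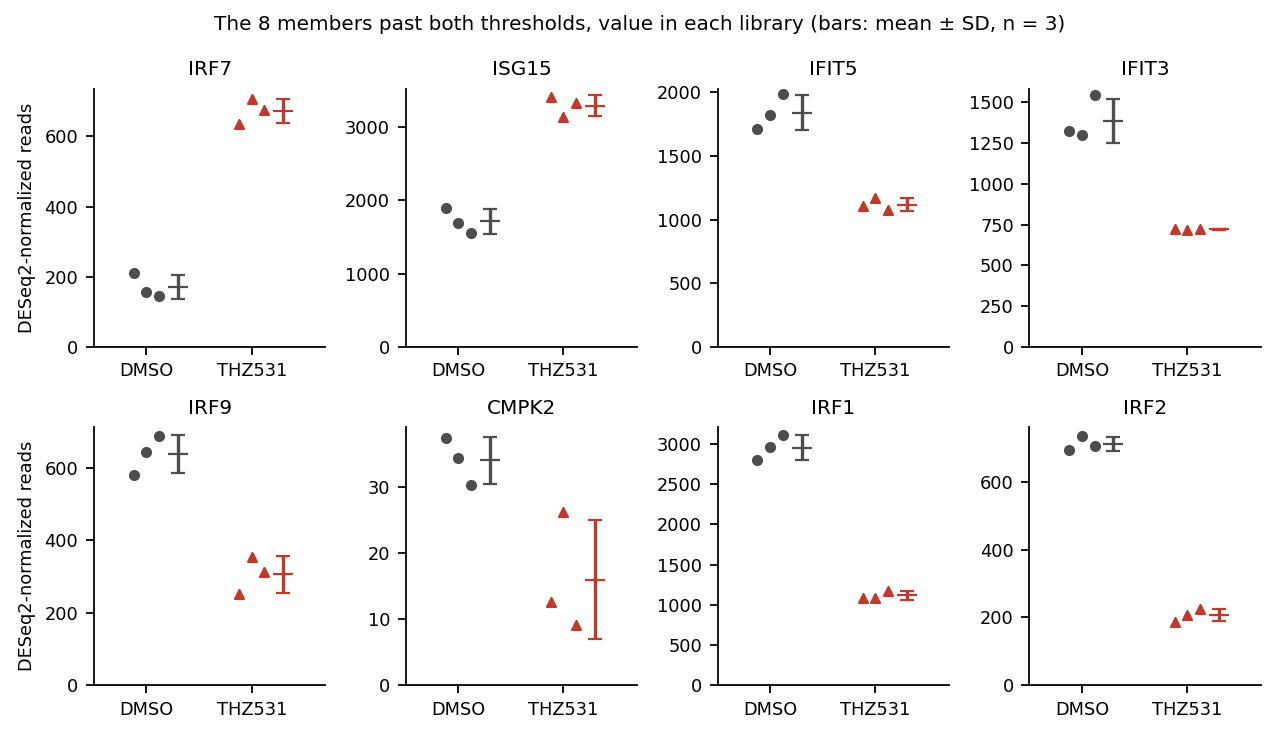
DESeq2-normalized reads (y axis, from 0, a scale for each gene) of the 8 called members in each library of the DMSO and THZ531 groups, with the mean ± SD of each group (n = 3) beside the points. IRF7 and ISG15 are higher in all 3 THZ531 libraries, and in CMPK2, at under 40 reads, 1 THZ531 library lies near the DMSO range.

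ISG15 encodes a ubiquitin-like protein that HERC5 attaches to other proteins and USP18 removes. It had 1889, 1693 and 1549.5 reads in DMSO and 3411, 3135 and 3323 in THZ531. The lowest THZ531 library stood far above the highest DMSO library. The means were 1711 ± 170.2 and 3289.6 ± 141 (SD, n = 3), a log2 fold change of 0.95 (SE 0.07, adjusted p = 2.72e-09). With libraries set to RPL34 the value was 0.45, which is under 1.5-fold. ISG15 is a short locus of 1.04 kb with 2 exons (chr1:1013497-1014540), and its promoter window is the one printed above with 2 overlapping ISRE matches. Its neighbours AGRN and HES4 were higher by 0.37 and 0.25.

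None of the 3 other members of the ISG15 pathway was called. USP18 had 445, 438 and 354 reads in DMSO and 443, 467 and 514 in THZ531, and the groups overlapped (log2 fold change 0.21, SE 0.11, adjusted p = 0.11, with a negative sign with libraries set to the same total or to RPL34). HERC5 was at 171 to 218 in DMSO and 223 to 289 in THZ531, with 0.33 (SE 0.15, adjusted p = 0.06), and its sign also turned with RPL34. HERC6, its neighbour and relative, was at 203 to 233 and 116 to 168, with -0.58 (SE 0.17, adjusted p = 0.0052). HERC6 thus lay just under 1.5-fold, and was called lower under all 4 other scalings, by edgeR, with a pseudocount of 0.1 and without DMSO replicate 1 or 2 or THZ531 replicate 2 or 3, at -0.59 to -1.08.

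The IFIT genes encode proteins that bind foreign RNA ends, and the 4 members lie side by side on chromosome 10. IFIT3 had 1325, 1297 and 1544 reads in DMSO and 725, 719.5 and 722 in THZ531. The 3 THZ531 libraries had a coefficient of variation of 0.41%, and the gene had a log2 fold change of -0.94 (SE 0.07, adjusted p = 1.5e-08). IFIT5 had 1716, 1822 and 1985 reads in DMSO and 1106, 1172 and 1079 in THZ531. All 3 THZ531 libraries were below all DMSO libraries, with a log2 fold change of -0.72 (SE 0.07, adjusted p = 7.58e-08). IFIT2 had 705, 685 and 610.4 reads in DMSO and 469.8, 623 and 534 in THZ531. Its groups overlapped, with -0.30 (SE 0.10, adjusted p = 0.016). IFIT1, which binds RNA that lacks the cap methylation of the host, was low, with 90.5, 135 and 60.6 reads in DMSO and 140, 126 and 130 in THZ531. IFIT1 overlapped as well, its value of 0.54 (SE 0.25, adjusted p = 0.063) did not pass, and without DMSO replicate 2 it was 0.82 and past both thresholds. IFIT1, IFIT2 and IFIT3 lie inside the locus given for LIPA (chr10:89213571-89414625), which was higher by 0.38, and IFIT5 touches it. LIPA lies on the other strand, so reads could be mixed if strand was not used.

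The IFITM proteins block the entry of viruses at membranes, and their 3 genes were each higher by less than 1.5-fold as deposited. With RPL34 only IFITM1 kept a positive sign. IFITM3 had 14891, 14402 and 13770.0 reads in DMSO and 19177, 18953 and 18681 in THZ531, a log2 fold change of 0.40 (SE 0.04, adjusted p = 6.58e-08). IFITM2 had 4223, 4322 and 4237 reads in DMSO and 5625, 5572 and 5389 in THZ531, a log2 fold change of 0.38 (SE 0.04, adjusted p = 4.54e-07). IFITM1 was less abundant, with 285, 259.8 and 189.9 reads in DMSO and 393, 343 and 347 in THZ531, and 0.58 (SE 0.15, adjusted p = 0.0023). No gene of the family had overlapping groups, but with libraries set to RPL34 the values were 0.08 for IFITM1, -0.12 for IFITM2 and -0.09 for IFITM3, so their direction rests on the scaling. IFITM1 passed 1.5-fold without any 1 of 4 libraries (DMSO replicates 1 and 2, THZ531 replicates 2 and 3), with values from 0.60 to 0.70. Of the 100-base windows of IFITM1 50.1%, of IFITM3 8.20% and of IFITM2 2.095% occur in transcripts of another gene, so their reads could be split. IFITM1 and IFITM2 shared most with a readthrough gene that GENCODE annotates from within IFITM2 to the end of IFITM1 (chr11:308408-315272). IFITM3 shared most with IFITM1.

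The MX and OAS genes, classical markers of a type I interferon response, held no called member. MX1, a dynamin-like GTPase, had 803, 897 and 701 reads in DMSO and 530.2, 593 and 535 in THZ531. MX1 groups did not overlap, and the log2 fold change of -0.53 (SE 0.10, adjusted p = 0.00013) was under 1.5-fold. Without DMSO replicate 3 it was -0.62 and past both thresholds. MX2 was at 190.2 to 204 in DMSO and 140 to 165 in THZ531, with -0.33 (SE 0.15, adjusted p = 0.058). OAS3, an enzyme that makes 2-5A to activate RNase L, had 1342, 1289.8 and 1159 reads in DMSO and 1306, 1198 and 1281 in THZ531. That is a log2 fold change of 0.00 (SE 0.07) with overlapping groups, and it became -0.24 with libraries set to the same total and -0.49 with RPL34. OAS1 was at 113 to 154 and 91.9 to 115, with -0.34 (SE 0.19, adjusted p = 0.13), and OASL at 53.8 to 96.1 and 40.3 to 77.3, with -0.25 (SE 0.30, adjusted p = 0.48). OAS2 ranged from 0 to 19.5 reads over the 6 libraries and was not tested.

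Among the other effectors, CMPK2, a mitochondrial nucleotide kinase, had 37.3, 34.3 and 30.3 reads in DMSO and 12.6, 26.1 and 9.10 in THZ531. The groups did not overlap but the counts were low, and the log2 fold change was -1.17 (SE 0.43, adjusted p = 0.024). Without THZ531 replicate 3 it was -0.86 and no longer called. RSAD2, its neighbour, which encodes viperin, ranged from 0 to 9.10 reads and was not tested. ISG20, an exonuclease, was at 378 to 409 in DMSO and 323 to 395 in THZ531 with -0.17 (SE 0.11), and BST2, the tethering protein tetherin, at 304 to 353 and 323 to 336 with 0.02 (SE 0.11). The groups of both genes overlapped.

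Of the 5 IFI genes none was called. IFI27, a widely used marker of interferon exposure, had 1196, 1123 and 807 reads in DMSO and 1481, 1498 and 1405 in THZ531. All THZ531 libraries were above DMSO, with a log2 fold change of 0.51 (SE 0.11, adjusted p = 0.00057), which was 0.62 and past both thresholds without DMSO replicate 1 and 0.01 with RPL34. DMSO replicate 3 was the lowest library for IFI27, IFITM1 and IFIT1 alike, and also for the called members IRF7 and ISG15. It was the highest library for IRF1, IRF9, IFIT3 and IFIT5. IFI35 was at 335 to 381 in DMSO and 358 to 375 in THZ531, IFI6 at 66.2 to 116 and 64.8 to 101, and IFI44 at 33.5 to 41.8 and 26.1 to 38.7. Their log2 fold changes were 0.03 (SE 0.10), -0.02 (SE 0.25) and -0.12 (SE 0.32), with overlapping groups. IFI44L, at 13.6 to 37.3 and 6.83 to 17.6, had -0.87 (SE 0.52, adjusted p = 0.15), so a change of that size was not distinguishable from the spread at this depth.

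**Figure D3:**
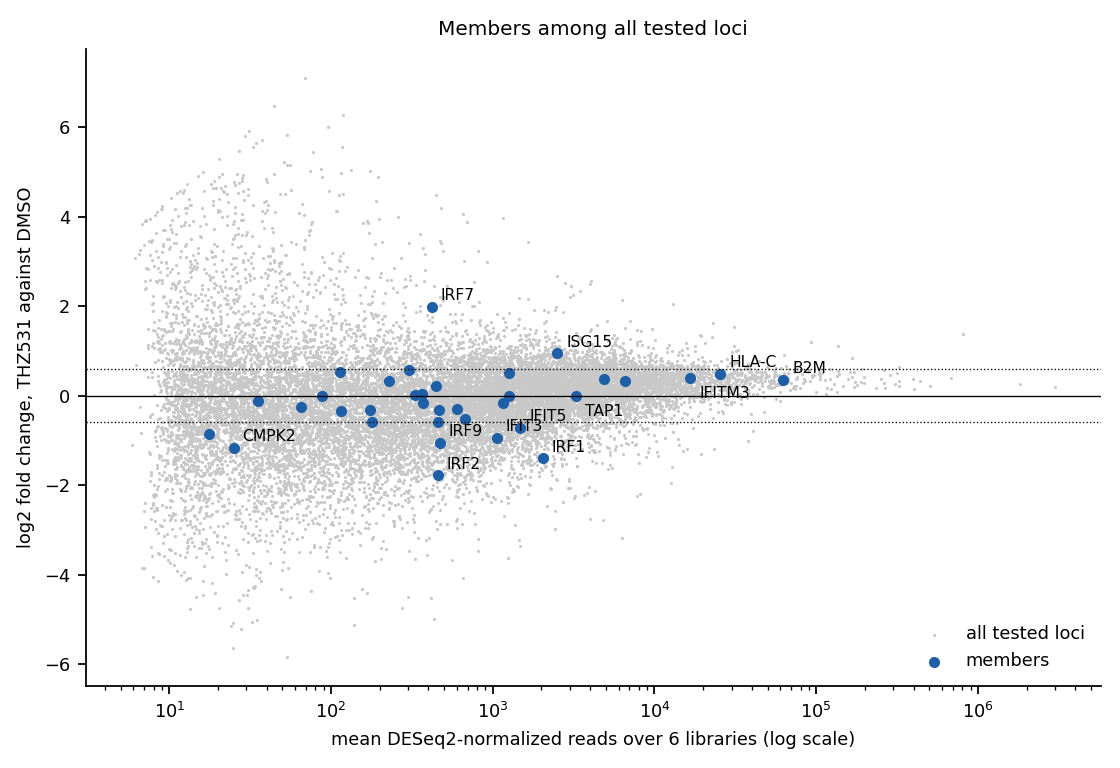
Log2 fold change (y axis) against the mean of the 6 libraries in DESeq2-normalized reads (x axis, log scale) for the 17568 tested loci in grey and the 35 tested members in blue, with dotted lines at 1.5-fold. B2M, HLA-C and IFITM3 are among the abundant loci and sit just above 0 as deposited (at or below 0 with RPL34), and IRF7 and IRF2 stand farthest from 0 among the members.

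The MHC class I genes were among the most abundant members, and 3 of the 4 were higher by less than 1.5-fold as deposited but not with RPL34. Per kb of canonical transcript, B2M was at 58492 normalised reads in DMSO, IFITM3 at 23493, HLA-C at 13788, IFITM2 at 4235, HLA-B at 3779, ISG15 at 2685, IFI27 at 1438 and TAP1 at 1221, and at the other end of the tested members IFI44L was at 3.97. B2M, the light chain of every class I molecule, had 51988, 55135 and 58349.8 reads in DMSO and 71506, 69756 and 69150.4 in THZ531, a log2 fold change of 0.35 (SE 0.04, adjusted p = 7.8e-07). HLA-C, a heavy chain, had 22043, 21442 and 20299 reads in DMSO and 29693, 29851 and 29916 in THZ531, with 0.49 (SE 0.04, adjusted p = 4.65e-09). HLA-B had 5655, 5972 and 5788 reads in DMSO and 7349, 7277 and 7379 in THZ531, with 0.34 (SE 0.04, adjusted p = 8.85e-07). The groups of these 3 genes did not overlap, and all were under 1.5-fold, yet with RPL34 the values were -0.15 for B2M, -0.16 for HLA-B and -0.0043 for HLA-C, so this direction too rests on the scaling. Together these 3 genes took 0.144% to 0.149% of all normalised reads in DMSO and 0.161% to 0.162% in THZ531. This share has the library total as its reference, as has the scaling to the same total. With that scaling the log2 fold changes were 0.105 for B2M, 0.095 for HLA-B and 0.246 for HLA-C. TAP1, the peptide transporter subunit, had 3263, 3267 and 3302 reads in DMSO and 3233, 3294 and 3174 in THZ531. TAP1 had a log2 fold change of -0.02 (SE 0.04, adjusted p = 0.71), and it was -0.26 and -0.51 with libraries set to the same total and to RPL34. An antisense locus that overlaps TAP1, PSMB8-AS1, fell by 2.01, and an unnamed locus inside B2M rose by 1.27. Of the 100-base windows of HLA-B none, and of HLA-C 0.28%, occur in another gene's annotated transcripts.

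**Figure D4:**
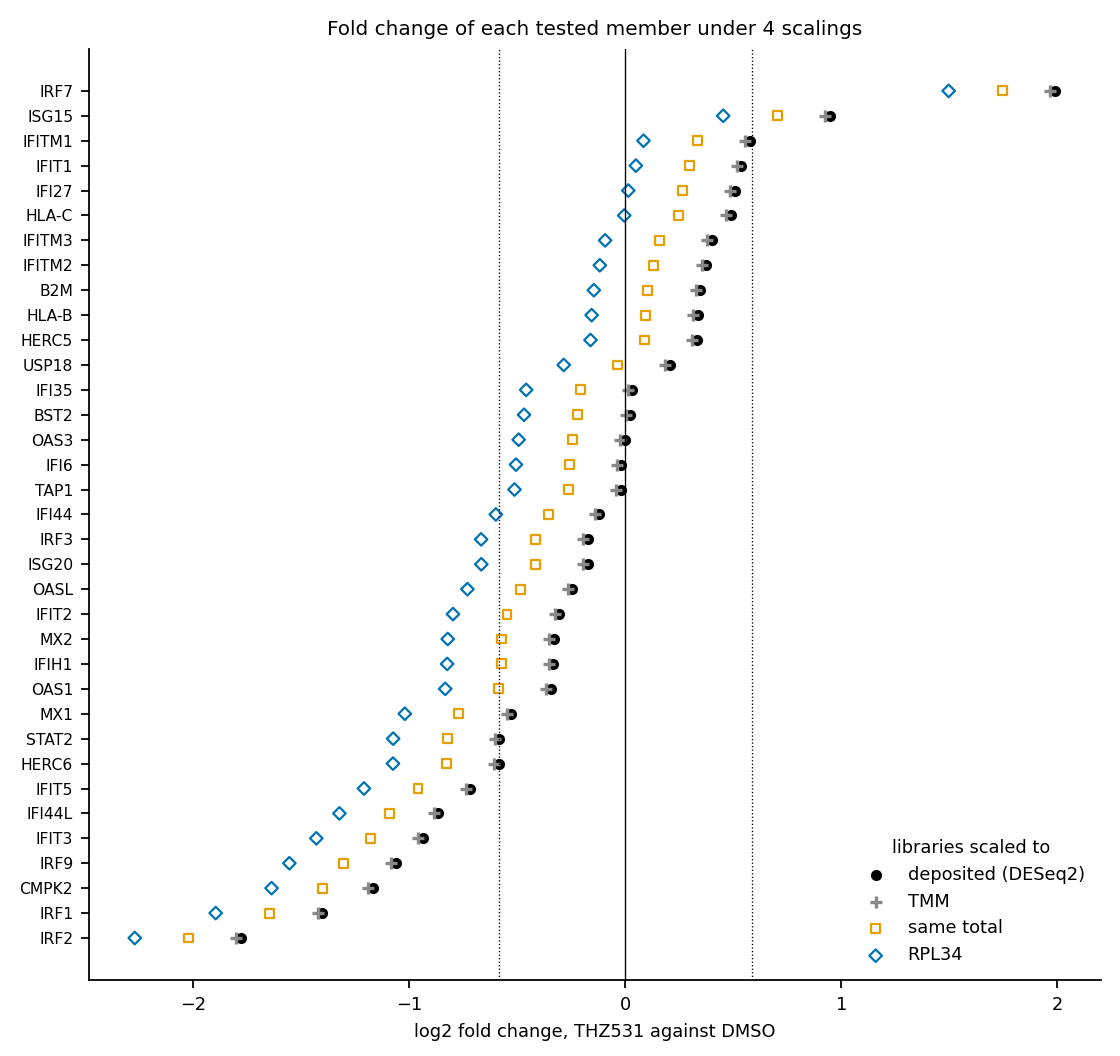
Log2 fold change of the 35 tested members (x axis) with libraries scaled as deposited, by TMM, to the same total and to RPL34, ordered by the deposited value, with dotted lines at 1.5-fold. IRF7 stays to the right of the dotted line and IRF2, IRF1, CMPK2, IRF9, IFIT3 and IFIT5 to the left of it in all 4, while B2M, HLA-B, IFITM2 and IFITM3 cross 0 with RPL34.

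Under the other scalings the members called higher numbered 2 with the same total (background 9.38%) and 1 with RPL34 (background 6.14%). The members called lower numbered 10, or 28.6% (background 32.0%), and 17, or 48.6% (background 42.8%). Those added with the same total were STAT2, HERC6, MX1 and OAS1, and RPL34 added to these IRF3, IFIH1, IFIT2, MX2, OASL, ISG20 and IFI44L.

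Among the members, short loci had mostly positive and long loci mostly negative log2 fold changes. All 7 tested members with a locus under 5 kb (ISG15, IRF7, the 3 IFITM genes, HLA-B and HLA-C) had a positive log2 fold change, and 11 of the 13 with a locus of at least 20 kb had a negative one. With RPL34, 3 of the 7 were positive and all 13 were negative. Of the 11, OAS3 was at -0.00036 as deposited. IRF1, OAS1, CMPK2 and ISG20, also among the 11, have canonical transcripts that span 9.17, 12.9, 17.6 and 17.5 kb, under 20 kb. OASL, negative too, has a locus of 19.0 kb and a canonical transcript of 20.1 kb. Across the 35 tested members the Spearman correlation of locus span and log2 fold change was -0.62, and -0.56 with the span of the canonical transcript, beside -0.06 over the 15278 tested loci with a symbol. These are descriptions across genes that share the same 6 libraries, and several members are neighbours that could share reads. The correlation of the log2 fold change with the mean value was 0.25 over the members and 0.28 over the loci with a symbol. The ISRE letters were found among called members of both directions. Of 18 tested members with them in a promoter window 1 was called higher and 2 lower, with a median of -0.01. Of 9 without them none was called higher and 3 lower, with a median of -0.58. Over all tested loci 15.7% were called higher and 23.9% lower. For the GAS letters, of 9 tested members with them none was called higher and 2 lower, with a median of -0.02, and of 18 without them 1 was called higher and 3 lower, with a median of -0.07. Both splits cover the 27 tested members with a promoter entry, so IRF7 and IRF2, which have none, are left out. These counts and medians are descriptions of few genes.

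**Figure D5:**
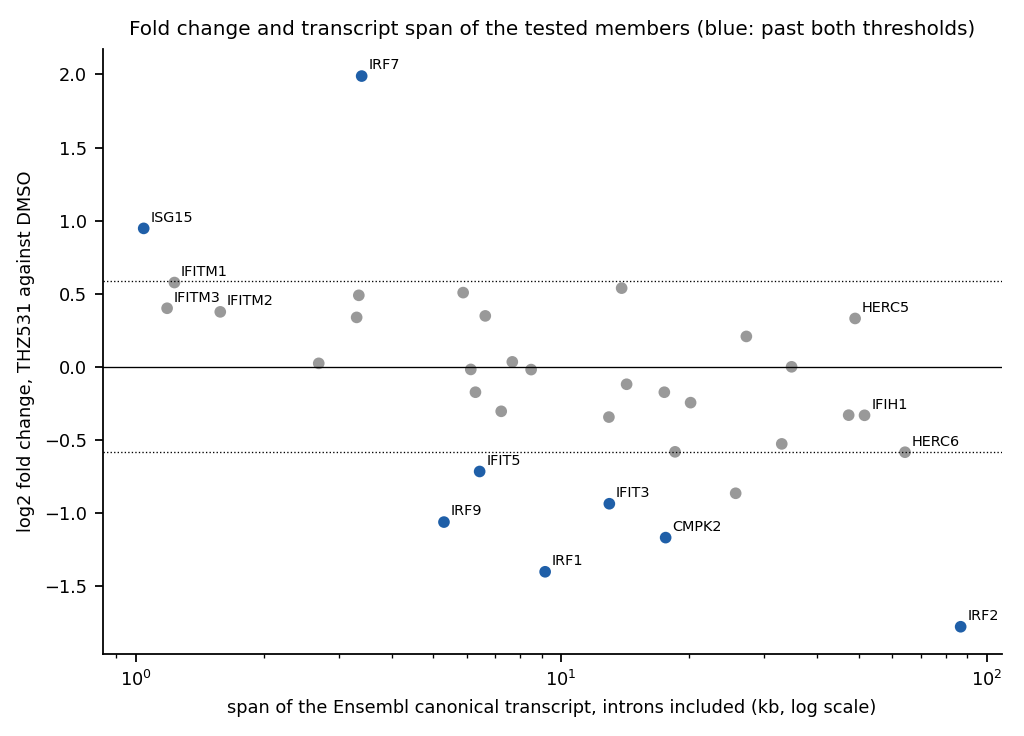
Log2 fold change (y axis) of the 35 tested members against the span of the Ensembl canonical transcript with introns (x axis, kb, log scale), with called members in blue and dotted lines at 1.5-fold. ISG15, the IFITM genes and IRF7 sit at the short end above 0 as deposited (IFITM2 and IFITM3 at -0.12 and -0.09 with RPL34), and IRF2 at the long end has the lowest value.

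The rest of the pathway was read from 8 lists with 150 genes in the table, of which 117 were tested. Of these, 11 (9.40%) were called higher and 23 (19.7%) lower, beside 15.7% and 23.9% of all tested loci. With the same total 6 (5.13%) were called higher and 34 (29.1%) lower, beside 9.38% and 32.0% of all tested loci. With RPL34 2 (1.71%, ZC3HAV1 and IRF2BPL) were called higher and 50 (42.7%) lower, beside 6.14% and 42.8%. No interferon gene was expressed at a level that could be tested: of 22 ligand genes 17 were at 0 in all libraries. IFNE, an epithelial interferon named after its values were seen, reached 17.5 reads in DMSO and 2.28 in THZ531. Among the receptor chains, IL10RB, shared by the lambda interferon and IL-10 receptors, fell by 1.01 (SE 0.09) and IFNLR1, the other lambda chain, by 0.84 (SE 0.19). IFNAR1, IFNAR2 and IFNGR2 had log2 fold changes of -0.17, -0.45 and -0.31, and IFNGR1 one of 0.35, none of them called. The kinases JAK1, JAK2 and TYK2 were at 0.55, 0.42 and 0.38, all under 1.5-fold, and at 0.05, -0.07 and -0.12 with RPL34.

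Among 15 tested sensors and adaptors, 1 (6.67%) was called higher and 3 (20%) lower, beside 15.7% and 23.9% of all tested loci. With the same total the counts were 1 (6.67%) and 4 (26.7%), beside 9.38% and 32.0%. With RPL34 they were 1 (6.67%) and 9 (60%), beside 6.14% and 42.8%. ZC3HAV1, the antiviral protein ZAP, had 1974, 1986 and 1984 reads in DMSO and 4969, 4884 and 4935 in THZ531, a log2 fold change of 1.31 (SE 0.04). MAVS, the adaptor through which IFIH1 signals, had 1088, 1218 and 1359 reads in DMSO and 208, 248 and 253 in THZ531, and fell by 2.37 (SE 0.10). Among 15 tested negative regulators 4 (26.7%) were called higher and 2 (13.3%) lower, beside the background of 15.7% and 23.9%. With the same total 1 (6.67%) was called higher and 3 (20%) lower, beside 9.38% and 32.0% of all tested loci. With RPL34 the counts were 1 (6.67%) and 5 (33.3%), beside 6.14% and 42.8%. The one called higher in each case was IRF2BPL. As deposited IRF2BPL, a relative of the IRF2 corepressors, had the largest change of the 4, 1.08 (SE 0.05), from 5499.9 to 6084 reads in DMSO and 11901 to 12878 in THZ531.

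Of 44 tested other interferon-stimulated genes 1 (2.27%) was called higher and 13 (29.5%) lower, beside the background of 15.7% and 23.9%. With the same total the counts were 1 (2.27%) and 20 (45.5%), beside 9.38% and 32.0% of all loci. With RPL34 they were 0 and 23 (52.3%), beside 6.14% and 42.8%. SLFN5, of the Schlafen family, fell by 3.21 (SE 0.10), from 1361 to 1553 reads in DMSO to 145 to 167 in THZ531, and TDRD7 by 1.97 (SE 0.23), from 141 to 180.0 reads to 33.0 to 51.6. SP100, a component of PML nuclear bodies, rose by 1.02 (SE 0.05), from 1725 to 1806 reads to 3527 to 3645, and by 0.53, under 1.5-fold, with RPL34. Of 18 tested other genes of the class I pathway, 1 (5.56%) was called in each direction, beside 15.7% and 23.9% of all loci. With RPL34 none was called higher and 3 (16.7%) lower, beside 6.14% and 42.8%. Of 12 of the class II pathway 3 (25.0%) were called higher and 2 (16.7%) lower, against the same 15.7% and 23.9%. The 3 were HLA-DRB1, HLA-DPA1 and RFXAP, named after their values were seen. HLA-DRB1 was low, at 21.5 to 43.6 reads in DMSO and 55.7 to 69.3 in THZ531, and the groups of HLA-DPA1 overlapped. Only HLA-DRB1 was called higher with the same total (8.33%, background 9.38%) and none with RPL34 (background 6.14%). The factors below, which act on these promoters, were also named after their values were seen, so their calls are not counted against the background. NLRC5, which drives class I genes, had a log2 fold change of -0.88 (SE 0.10), CIITA, which drives class II genes, one of -2.68 (SE 0.29), and RFX5, which binds the promoters of both classes, one of -1.15 (SE 0.06). Of the partners of RFX5 in its complex, RFXAP had one of 0.69 (SE 0.14) and was called higher as deposited. RFXAP was at 0.45 with the same total and at 0.20 with RPL34, and was called with neither. RFXANK had a log2 fold change of -0.10 (SE 0.08) and was not called as deposited. HLA-B, HLA-C, B2M and TAP1 did not fall by 1.5-fold in the same libraries under any of the 5 scalings. Below that threshold, TAP1 was at -0.26 with the same total (adjusted p = 7.2e-05) and at -0.51 with RPL34 (adjusted p = 2.4e-05). With RPL34, B2M was at -0.15, HLA-B at -0.16 and HLA-C at -0.0043. A link between these factors and these genes was not tested.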

How the data were processed

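RNA of OVCAR3 cells was sequenced by the authors from stranded poly(A) libraries, aligned to hg38 with STAR (2.7.5a in the submitters' processing notes) and counted on FAST DB loci, and they deposited DESeq2-normalized counts, a signal that is the read count divided by a size factor. Column totals therefore differ between libraries. Whole reads were recovered from all deposited values (100% within 0.01 of a whole number). Groups came from the sample titles. Loci that reached 10 units in 3 or more libraries were fitted with limma 3.58.1 (trend, log2(value + 1), R 4.3.3) over all 6 libraries, and edgeR 4.0.16 and DESeq2 1.42.0 on the recovered reads were alternatives, with other scalings, pseudocounts, filters, a replicate block and each library left out. The scripts were tested on simulated data. The labels give 3 biological repeats per group, and no 2 libraries agreed within counting noise. Same-numbered libraries did not deviate together (correlations 0.002, 0.019 and -0.039), so numbers were not taken as pairs. The members, the lists and the thresholds were chosen with earlier results of these data known. All members are reported, with each library's value for those called. Of the 8 pathway lists, the receptors and JAK kinases are named. So are at most the 3 genes with the largest called change in each direction, without overlap and with a mean of at least 100. Any other gene of these lists is marked as chosen after its values were seen. Cell type markers were named without this rule. Spans and exons are from GENCODE release 44 and promoter windows from RefSeq on GRCh38.p14, of the same build as the file's coordinates. No strand is given with the loci.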

Additional observations from a re-analysis of the deposited data

How the results depend on the processing

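Of 560 values of single members under an alternative, 501 kept their direction and stayed called or not called as before (the p alone may have crossed its threshold), 36 were called in addition, 2 were no longer called and 21 changed sign. IRF7, IRF1, IRF2, IRF9, IFIT3 and IFIT5 kept their call under every scaling, pseudocount, tool and left-out library run, with the exception of the filters, which were not run for single members. ISG15 lost it with RPL34 and CMPK2 without THZ531 replicate 3.

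Members called higher numbered 1 when a 2-fold change was required and 1 with RPL34. Members called lower numbered 10 with the same total and 17 with RPL34. The median log2 fold change of the members was -0.36 with the same total, -0.60 with RPL34 and -0.019 when 3 or more libraries had to reach 50 units. With 1 library left out it ranged from -0.18 (without DMSO replicate 3) to -0.022 (without DMSO replicate 2), and 2 to 4 members were called higher, the 4 without DMSO replicate 1 or without DMSO replicate 2. All other alternatives for the counts and the median, with TMM, upper-quartile scaling, other pseudocounts, no filter, limma without a trend, edgeR and DESeq2 among them, stayed within 1.5 times the counts and within 1 SD of the median over replicates.

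Signs turned for 3 members with the same total, where USP18 was at -0.035, BST2 at -0.22 and IFI35 at -0.21. With RPL34 they turned for 9, where USP18 was at -0.28, HERC5 at -0.16, IFITM2 at -0.12, IFITM3 at -0.093, BST2 at -0.47, IFI35 at -0.46, B2M at -0.15, HLA-B at -0.16 and HLA-C at -0.0043. These follow from the shift that each scaling applies to all loci. With 1 library left out, values crossed 0 for OAS3 (-0.062 to 0.045), OASL (-0.45 to 0.0075), BST2 (-0.026 to 0.081), IFI6 (-0.21 to 0.19), IFI35 (-0.019 to 0.074) and IFI44 (-0.22 to 0.049), none of which was called.

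Fitting the replicate number as a block left 2 members called higher and 6 called lower with a median of -0.12 and changed no call of a member. Same-numbered libraries share only a number here. With 3 libraries a group the precision is set by their spread, and OAS2 and RSAD2, at under 20 reads, lie below what this depth can compare.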
